A study of Mus musculus with 4 samples.

Results

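The genes described here encode the interleukin-7 receptor and the parts it shares with its relatives. They are the receptor chains Il7r, Il2rg, Il2rb and Il2ra, the kinases Jak1 and Jak3, and the transcription factors Stat5a and Stat5b. These 8 genes were found by symbol among the 31914 genes that the feature lists of the 4 libraries hold together, and all 8 are present in every library. The groups were embryonic periphery and fetal liver of C57BL/6J mouse embryos at E14.5 and at E13.5, with 1 library for each tissue and stage. Cells enriched on CD45 beads were sorted as live, CD45+, F4/80- and IL7Rα+, so every cell in the data passed a gate on the protein product of Il7r. The series is about how lymphoid tissue inducer (LTi) cells arise, which are fetal innate lymphocytes that start the formation of lymph nodes. Libraries of periphery were made with the 10x Chromium 3′ kit version 2 and those of fetal liver with version 3, so that kit and tissue cannot be told apart. The number of embryos pooled is not given in the sources used here.

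Interleukin-7 binds a receptor made of the alpha chain, encoded by Il7r, and the common gamma chain, encoded by Il2rg. Jak1 sits on the alpha chain and Jak3 on the gamma chain; their activation phosphorylates STAT5, which enters the nucleus and drives genes of survival, proliferation and feedback. The alpha chain also pairs with the Crlf2 product to bind thymic stromal lymphopoietin, and the gamma chain also serves the receptors of interleukins 2, 4, 9, 15 and 21. In mice, loss of Il7r or Il2rg impairs B and T lymphopoiesis and the formation of lymph nodes.

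Levels are given as CPM, the UMIs of a gene scaled by all UMIs of the same cells, with exact Poisson 95% intervals in parentheses. These intervals and those on shares of cells cover counting error only. With 1 library in each group no difference could be tested, and no p-value is given. Log2 folds were taken after adding 5 CPM and are relative to the median of all measured genes of the comparison, where measured means at least 10 CPM in either library. A gene is called higher or lower where its fold lies past 0.5 log2 units, 1.41 times on the linear scale.

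The kept cells numbered 4354 in periphery at E14.5, 4165 in periphery at E13.5, 10768 in fetal liver at E14.5 and 10263 in fetal liver at E13.5. The median cell held 8503 to 11081 UMIs in periphery and 15586.5 to 18450 in fetal liver. Any pair of libraries shared 0 to 33 barcodes. Ptprc, which encodes CD45, stood at 61.9 to 66.0 CPM in periphery and 98.3 to 143 in fetal liver. Adgre1, which encodes F4/80, was at 6.83 to 8.20 CPM in periphery and 2.04 to 3.56 in fetal liver. Clusters were named "X-like" from fixed markers that include none of the 8 genes, and the 8 genes were kept out of the clustering.

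The sequences upstream of Il7r and Il2rg are shown because these chains form the interleukin-7 receptor and followed each other over the clusters of periphery. They come from RefSeq on GRCm38.p6, which held an upstream window for 7 of the 8 genes; Il2rb had no entry. Il7r lies on the minus strand at chr15:9505788-9530176 in GENCODE M21. Its stretch, chr15:9529877-9530040, is upstream of the RefSeq start but inside that GENCODE span, and an annotated Il7r exon begins beyond it. Il2rg lies on the minus strand at chrX:101264378-101268255, and its stretch is chrX:101268256-101268505. Capitals mark matches on either strand to GGAAG, the core bound by ETS factors (CTTCC on the other strand), to TGTGGT, a RUNX motif, and to TTCNNNGAA, the palindrome bound by STAT dimers; no matches overlap.
Il7r: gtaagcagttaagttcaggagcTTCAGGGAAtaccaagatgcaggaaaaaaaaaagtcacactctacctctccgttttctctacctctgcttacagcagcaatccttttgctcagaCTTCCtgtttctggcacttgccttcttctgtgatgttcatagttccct
Il2rg: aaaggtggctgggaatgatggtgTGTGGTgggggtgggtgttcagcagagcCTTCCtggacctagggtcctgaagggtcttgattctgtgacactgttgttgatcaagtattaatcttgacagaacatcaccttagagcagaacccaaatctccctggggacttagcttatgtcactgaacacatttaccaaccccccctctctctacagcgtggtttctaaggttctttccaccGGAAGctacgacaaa
The Il7r stretch holds the STAT palindrome 142 bases and an ETS core 48 bases before the RefSeq start. The Il2rg stretch holds ETS cores 199 and 15 bases and a RUNX motif 227 bases before the start. The search covered 250 bases before the start of each gene, of which the 164 printed bases of Il7r are a part. Among 32851 such RefSeq windows, 64.1% hold GGAAG, 14% hold TGTGGT and 7.02% hold TTCNNNGAA. The STAT palindrome was found in the Il7r window alone among the 7 genes with an entry. A match is a run of letters, not a measured binding site.

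Il7r was highest in the periphery of E14.5. It stood at 394 CPM (388 to 400.3) in periphery at E14.5, 213 (209 to 217) in periphery at E13.5, 188 (186 to 190.0) in fetal liver at E14.5 and 150.3 (149 to 152) in fetal liver at E13.5. No interval overlapped another, and each tissue held more Il7r at E14.5. Il2rg, the gamma chain, showed a wider gap between tissues. It stood at 293 CPM (288 to 298) in periphery at E14.5 and 187 (184 to 191) in periphery at E13.5, against 52.2 (51.2 to 53.3) in fetal liver at E14.5 and 57.0 (56.0 to 58.1) in fetal liver at E13.5. Its 2 fetal liver values lay close together, with E14.5 the lower.

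Il2rb, the beta chain that serves interleukins 2 and 15, had far higher levels in the libraries of periphery. It stood at 67.3 CPM (64.9 to 69.8) in periphery at E14.5 and 64.2 (62.0 to 66.4) in periphery at E13.5, against 4.74 (4.43 to 5.07) in fetal liver at E14.5 and 6.12 (5.78 to 6.47) in fetal liver at E13.5. Il2ra, the alpha chain of the high-affinity interleukin-2 receptor, was near 0 in all libraries. Periphery held 132 UMIs of it at E14.5 and 36 at E13.5, which are 3.12 CPM (2.61 to 3.70) and 0.717 (0.502 to 0.992). Fetal liver held 35 UMIs at E14.5 and 7 at E13.5, which are 0.196 CPM (0.136 to 0.272) and 0.0353 (0.0142 to 0.0728).

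Jak1, the kinase of the alpha chain, varied less than the receptor chains. It stood at 159 CPM (156 to 163) in periphery at E14.5, 103 (100.2 to 106) in periphery at E13.5, 105 (104 to 107) in fetal liver at E14.5 and 94.4 (93.1 to 95.8) in fetal liver at E13.5. Jak3, the kinase of the gamma chain, differed in opposite directions in the tissues, with more at E14.5 in periphery and less at E14.5 in fetal liver. It stood at 26.9 CPM (25.3 to 28.5) in periphery at E14.5 and 15.2 (14.2 to 16.3) at E13.5, and at 24.9 (24.1 to 25.6) in fetal liver at E14.5 and 33.6 (32.8 to 34.4) at E13.5.

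The STAT5 genes were higher in the fetal liver libraries at both stages, before the all-gene median is taken off. Stat5a stood at 10.8 CPM (9.86 to 11.9) in periphery at E14.5 and 8.24 (7.47 to 9.08) at E13.5, against 17.98 (17.4 to 18.6) in fetal liver at E14.5 and 16.4 (15.8 to 17.0) at E13.5. Stat5b stood at 7.76 CPM (6.94 to 8.64) in periphery at E14.5 and 5.87 (5.22 to 6.58) at E13.5, against 13.6 (13.1 to 14.2) and 12.02 (11.54 to 12.5) in fetal liver. Stat5a and Stat5b are near-identical neighbours on chromosome 11, and how the counting split reads between them is not given in the sources used here. Il2rg overlaps Gm20489 on the same strand, which held 0 UMIs in all 4 libraries, and Jak3 overlaps Insl3, which held 0 to 6. These counts do not show whether the overlaps cost Il2rg or Jak3 any reads, which was not tested.

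**Figure D1:**
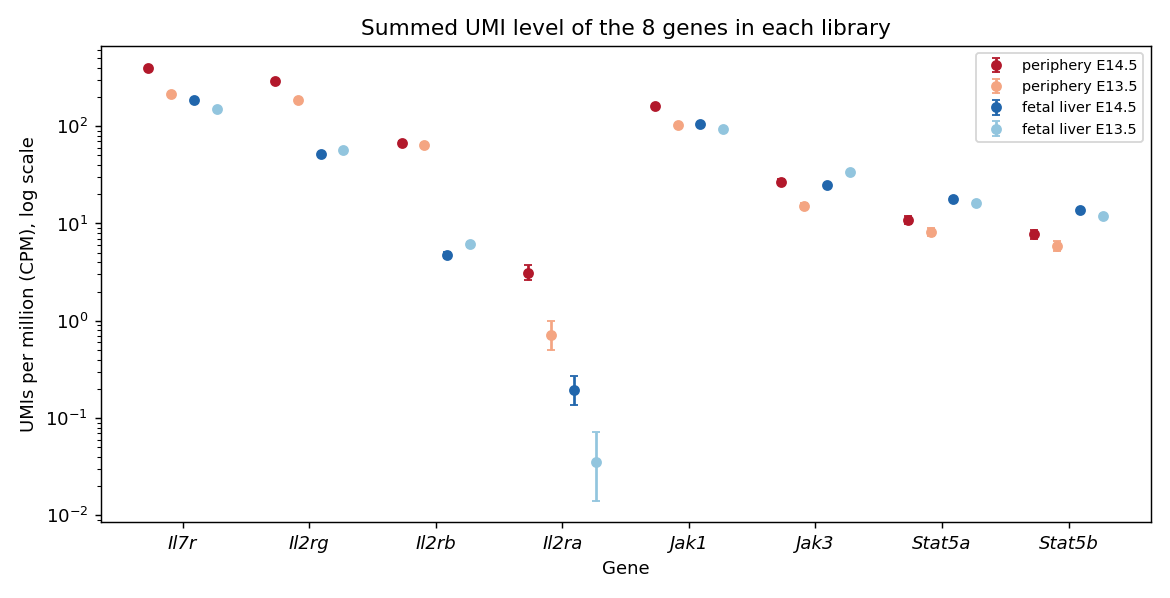
CPM of the 8 genes on a log axis in the 4 libraries, with exact Poisson 95% intervals (counting error only). Il7r, Il2rg, Il2rb and Jak1 are highest in periphery at E14.5, whereas the fetal liver libraries are highest for Stat5a and Stat5b.

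Between stages in periphery, only Il7r of the 6 measured genes lay past the threshold, with a log2 fold of 0.65 for E14.5 over E13.5. Of all 7207 genes measured there, 15.9% lay past it in either direction and 7.63% on the higher side. Il2rg (0.40), Jak1 (0.38) and Jak3 (0.43) lay on the higher side within the threshold. Stat5a was at 0.03 and Il2rb at -0.16. The all-gene median taken off was 0.23 on the log2 scale; with it left in, Il2rb turned to 0.06 and 4 of the 6 genes lay past the threshold, all higher. LTi-like cells made up 74.3% of cells (73.0 to 75.6, exact Clopper-Pearson) in periphery at E14.5 and 35.8% (34.3 to 37.3) at E13.5, and the part of this share in the folds of all cells was not tested.

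Within the LTi-like cells of periphery the stage difference in Il7r was smaller. These 3235 cells at E14.5 had 485 CPM (477 to 493) of Il7r, against 335 (326 to 344) in 1491 cells at E13.5, a log2 fold of 0.30. Il2rg was at 358 CPM at E14.5 and 269 at E13.5 (0.18), Jak1 at 180.2 and 136 (0.17), Jak3 at 32.6 and 20.6 (0.33) and Stat5a at 11.4 and 9.33 (-0.03). Il2rb went the other way and was the only one of the 6 measured genes past the threshold. It was at 81.9 CPM at E14.5 and 104 at E13.5, a log2 fold of -0.55, where 11.3% of all genes lay past the threshold and 5.57% on the lower side. The all-gene median taken off was 0.22; with it left in, 2 genes lay past the threshold, both higher, and Il2rb did not. Nearly all of these cells came from different clusters at the stages: P11, P12, P15 and P17 at E14.5, with 857, 1155, 1033 and 165 cells, and P0 and P6 at E13.5, with 1025 and 438.

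The LTi-like cells of fetal liver formed 1 cluster, FL3, with cells of both stages. Its 214 cells at E14.5 had 480.4 CPM of Il7r, against 376 in 340 cells at E13.5, a log2 fold of 0.33. Il2rg was at 232 CPM at E14.5 and 163 at E13.5 (0.47), and Jak1 at 190.5 and 138 (0.43). Il2rb was at 113 CPM at E14.5 and 137 at E13.5 (-0.30). Jak3 was at 31.7 and 27.7 CPM (0.14), Stat5a at 12.9 and 9.23 (0.30) and Stat5b at 11.04 and 8.56 (0.22). None of the 7 measured genes lay past the threshold, against 10.4% of all genes. In both tissues the LTi-like cells thus showed Il7r, Il2rg, Jak1 and Jak3 on the higher side and Il2rb on the lower side at E14.5; the difference between tissues was not tested.

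In whole fetal liver 0 of the 6 measured genes lay past the threshold between stages, where 6.39% of all genes did; no test stands behind either figure. Il7r was at 0.34 for E14.5 over E13.5, Il2rg at -0.08, Jak1 at 0.18, Jak3 at -0.34, Stat5a at 0.14 and Stat5b at 0.16. The makeup of these libraries differed: B lineage-like cells were 38.2% of cells at E14.5 and 3.95% at E13.5, and stem and multipotent progenitor-like cells 3.61% and 15.8%. Within single clusters the Il7r difference did not have 1 direction. Over 15 clusters with at least 50 cells at both stages, its fold was above 0 in 6 and below 0 in 9, between -0.49 in FL10 and 0.46 in FL17, with a median of -0.03. Neither Il7r nor Il2rg passed the threshold in any of the 15, in which 1.36% to 18% of all genes did. Stat5a passed it in unnamed FL13, with 14.6 CPM at E14.5 and 8.01 at E13.5 (0.58), where 15.8% of all genes did, and Jak3 in FL15, with 24.0 and 14.9 (0.52; 18%). The stage difference was small in unnamed FL7, with 131 CPM of Il7r at E14.5 and 137 at E13.5, in FL8, with 111 and 106, in unnamed FL9, with 80.7 and 82.4, in lymphoid progenitor-like FL4, with 236 and 270 (-0.18; 1.52% of all genes past the threshold), and in innate lymphoid progenitor-like FL1 (0.19; 2.1%) and FL5 (0.05; 4.79%). In neutrophil lineage-like FL14 it was -0.10, where 6.14% of all genes lay past the threshold.

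B lineage-like cells of fetal liver had less of both receptor chains at E14.5 with the settings used here. Their 4116 cells at E14.5 had 203 CPM of Il7r, against 324 in 405 cells at E13.5, a log2 fold of -0.64. Il2rg was at 31.3 CPM at E14.5 and 50.4 at E13.5 (-0.58), and Jak3 at 17.0 and 27.0 (-0.51). These 3 of 6 measured genes lay past the threshold, where 13.9% of all genes did and 8.9% on the lower side. Jak1 was at 107 and 143 CPM (-0.37), Stat5a had a fold of 0.22 and Stat5b of -0.18. The class held other clusters at each stage: FL10 had 1423 cells at E14.5 and 360 at E13.5, whereas FL11 had 2281 and 44 and FL16 had 412 and 1. Within FL10 the folds of Il7r, Il2rg and Jak3 were -0.49, -0.26 and -0.47, inside the threshold, which 9.54% of all genes passed there. The calls were also lost where marked doublets were kept and where clustering was finer. Under a stricter cell filter the class held 53 cells at E13.5. In that class Il2rg turned to 0.81 and was called higher, Jak3 turned to 0.068, and Il7r was at -0.27. Each of these settings clustered and named the cells anew, so the class was not made of the same cells.

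The other fetal liver classes differed little between stages in these genes. In lymphoid progenitor-like cells, with 2023 cells at E14.5 and 2872 at E13.5, Il7r was at 217 and 204 CPM (0.10) and 0 of 6 genes lay past the threshold, against 3.54% of all genes. Stat5a had the largest fold there, 0.33, with 18.5 CPM at E14.5 and 13.9 at E13.5, and Jak3 the lowest, -0.05. The class mixes cluster FL0, with 382 cells at E14.5 and 1538 at E13.5, and FL4, with 1641 and 1334. Within FL0 and FL4 the Il7r folds were -0.17 and -0.18, opposite in sign to that of the class. The Stat5a folds there were 0.13 and 0.18, below that of the class. Of all genes, 1.44% lay past the threshold in FL0 and 1.52% in FL4. In stem and multipotent progenitor-like cells 0 of 6 genes lay past it (1.57% of all genes), with folds between -0.11 for Stat5b and 0.08 for Il7r. In innate lymphoid progenitor-like cells 0 of 7 did (3.68%), between -0.19 for Il2rg and 0.37 for Stat5b, and in the NK-like or group 1 innate lymphoid class 0 of 7 (14.7%), between -0.36 for Stat5b and 0.40 for Il2rb. Plasmacytoid-like cells also had 0 of their measured genes past it (3.3%), between -0.29 for Il2rg and 0.07 for Jak1. Mast cell or basophil-like cells had 142 CPM of Il7r at E14.5 and 103 at E13.5 (0.46), in a comparison where 8.21% of all genes lay past the threshold.

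In periphery 6 clusters held at least 50 cells of both stages, and they differed among themselves. Il7r was higher at E14.5 in unnamed P7, with 164 CPM at E14.5 and 70.1 at E13.5 (0.96; 27.3% of all genes past the threshold), and in mast cell or basophil-like P14, with 147 and 79.3 (0.74; 27.9%). It was lower in monocyte or macrophage-like P10, with 50.8 and 89.4 (-0.89; 35.8%). Unnamed P4 had 299 and 199.5 CPM (0.33; 21%). Jak1 was also higher in P7, with 148 and 87.8 CPM (0.52), and in P14, with 171 and 109 (0.51). Stat5a was lower in P7, with 5.65 and 14.8 CPM (-1.10), and Stat5b higher in P14, with 15.2 and 7.81 (0.54); these clusters hold 52 to 69 cells a library. Il2rg passed it in none of the 6 clusters and was above 0 in 1 of them, between -0.39 in P5 and 0.12 in P10, whereas its fold over all periphery cells was 0.40. The NK-like or group 1 innate lymphoid class had 258 CPM of Il7r at E14.5 and 171 at E13.5 (0.35; 22.1% of all genes past the threshold), and B lineage-like cells 105 and 114 (-0.26; 15.1%).

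**Figure D2:**
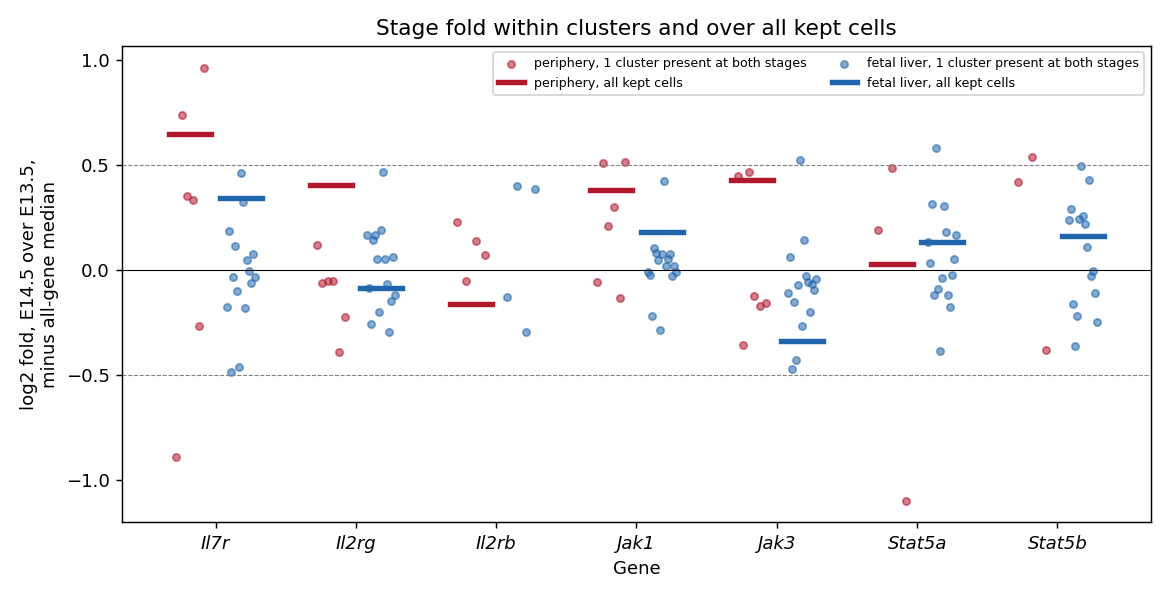
Log2 fold of E14.5 over E13.5, relative to all measured genes, for each gene in each tissue; points are clusters with at least 50 cells at both stages, bars are all kept cells, and dashed lines are the threshold of 0.5. In fetal liver all Il7r and Il2rg points lie within the threshold, whereas in periphery Il7r reaches from -0.89 to 0.96.

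Between tissues, Il2rg and Il2rb differed most at both stages. At E14.5 the log2 folds of periphery over fetal liver were 2.55 for Il2rg, 3.06 for Il2rb, 1.22 for Il7r and 0.74 for Jak1. These 4 of 7 measured genes were higher, and none was lower, where 51.4% of all genes lay past the threshold and 26.4% on the higher side. Jak3 was at 0.26, Stat5a at -0.37 and Stat5b at -0.38. At E13.5 Il2rg was at 2.05, Il2rb at 3.05, Il7r at 0.90 and Jak1 at 0.53; Jak3 was lower at -0.52, and 51.9% of all genes lay past the threshold. Thus 4 genes were higher and 1 lower at E13.5, against 27% and 24.9% of all genes. The all-gene median taken off was -0.41 at E13.5 and -0.17 at E14.5; with it left in, 2 were higher and 3 lower at E13.5, and 4 higher and 2 lower at E14.5. Kit, depth, feature list, the release of the counting software (Cell Ranger) and the share of LTi-like cells all moved with tissue. That share was 74.3% in periphery and 1.99% in fetal liver at E14.5, and 35.8% and 3.31% at E13.5.

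Among LTi-like cells alone, Il2rg was the only one of the genes past the threshold between tissues. At E14.5 it was at 358 CPM in periphery and 232 in fetal liver (0.77), and at E13.5 at 269 and 163 (1.10). The background was 42.4% of all genes at E14.5 and 52.6% at E13.5. Kit, feature list and Cell Ranger release differed between the tissues here as well, and their part was not tested. Il7r differed far less than in whole libraries, with 485 CPM in periphery and 480.4 in fetal liver at E14.5 (0.17), and 335 and 376 at E13.5 (0.23 after the all-gene median is taken off, although the CPM was lower in periphery). Il2rb, with the widest gap between whole libraries, was at 81.9 and 113 CPM at E14.5 (-0.28) and at 104 and 137 at E13.5 (0.01 after the median is taken off). Jak1 had folds of 0.08 at E14.5 and 0.38 at E13.5, and Jak3 of 0.19 and 0.04. Stat5a (0.03) and Stat5b (-0.27) were measured at E14.5 only.

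The clusters of at least 50 cells show where each chain was high; FL and P stand for clusters of fetal liver and of periphery. In periphery at E14.5, Il7r was highest in LTi-like P15 (708 CPM) and in unnamed P16 (658), which leads with MHC class II genes, and these intervals overlapped. Then came LTi-like P12 (479), P17 (424) and P11 (353), unnamed P4 (299), and group 1 innate lymphoid or NK-like P3 (258); B lineage-like P5 (105) and monocyte or macrophage-like P10 (50.8) were last. The intervals of P12 and P17 overlapped, as did those of P4 and P3. In periphery at E13.5, LTi-like P0 (380.2 CPM) stood first, followed by unnamed P1 (286) and LTi-like P6 (266), whose intervals overlapped, and unnamed P7 (70.1) was last. In fetal liver at E14.5 the order began with FL3 (480.4), unnamed FL15 (358), plasmacytoid-like FL6 (262), lymphoid progenitor-like FL4 (236) and B lineage-like FL10 (232), of which FL4 and FL10 overlapped. In fetal liver at E13.5, FL15 (489) was ahead of FL3 (376) and FL10 (334). FL15 leads with Ighg2b, H2-Aa, Cd74 and Vpreb3 and was given no name. Neutrophil lineage-like FL14 was last in fetal liver, at 13.1 CPM at E14.5 and 14.7 at E13.5, so that the highest cluster exceeded the lowest 36.5 and 33.2 times.

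Il2rg followed another order in fetal liver. Group 1 innate lymphoid or NK-like FL12 was first, at 241 CPM at E14.5 and 219 at E13.5, then FL3 at 232 and 163, and mast cell or basophil-like FL17 at 143 and 127. The intervals of FL12 and FL3 overlapped at E14.5 but not at E13.5. Some clusters with high Il7r were low in Il2rg: plasmacytoid-like FL6 had 34.0 and 42.5 CPM, and B lineage-like FL11 had 25.1 at E14.5. Lymphoid progenitor-like FL4 had 61.2 and 59.1, above the cluster medians of 49.0 and 53.4. In periphery the order was closer to that of Il7r, with P15 (492), P16 (468), P17 (354), P12 (334), P11 (296) and P3 (276) at E14.5 and B lineage-like P5 last at 31.0. At E13.5 it was highest in P0, at 296 CPM, and lowest in P5 (37.6) and plasmacytoid-like P8 (35.5).

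Il2rb was narrower still. In fetal liver it reached 118 CPM at E14.5 and 88.5 at E13.5 in FL12, and 113 and 137 in FL3. Innate lymphoid progenitor-like FL1 had 12.2 and 13.9 CPM and FL5 had 11.98 and 7.85, and all other fetal liver clusters were at or below 4.01. In periphery, P3 led at E14.5 with 136 CPM, and P1 (131) and P3 (120.3) led at E13.5. The intervals of FL12 and FL3 overlapped at E14.5, as did those of P1 and P3 at E13.5. Among LTi-like clusters it differed, with 102 CPM in P12 but 61.0 in P15, the cluster with the most Il7r. B lineage-like P5 had 1.02 CPM at E14.5 and 0.467 at E13.5.

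The kinases and STAT5 genes had smaller ranges over the large clusters; Stat5a was at 0 in 1 of them, FL18 at E14.5. Jak1 was highest in FL12 (226 CPM at E14.5 and 211 at E13.5) and P15 (225 at E14.5), and its highest cluster exceeded its lowest 2.85 to 3.60 times in each library. Jak3 in fetal liver was highest in FL8, the stem and multipotent progenitor-like cluster, at 39.99 CPM at E14.5 and 43.5 at E13.5, where Il7r was low (111 CPM at E14.5). Unnamed FL7 lay close to it, with 37.1 and 39.2 CPM of Jak3. In periphery at E14.5 Jak3 was highest in P15 (36.3) and P11 (34.6), both LTi-like, with overlapping intervals. Stat5a was highest in FL14 (21.1 CPM at E14.5 and 23.3 at E13.5), the cluster with least Il7r, and Stat5b in FL17 (33.4 and 27.7). The Stat5a lead of FL14 was narrow, with 20.07 CPM in FL10 at E14.5 and 22.35 in FL15 at E13.5. At E14.5 the FL14 value also lay inside the FL8 interval (17.03 to 23.34), so FL14 was not set apart. For Stat5b at E13.5, FL13 (25.18 CPM) lay inside the FL17 interval (20.18 to 37.01). In periphery the intervals of the leading Stat5a and Stat5b clusters overlapped.

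**Figure D3:**
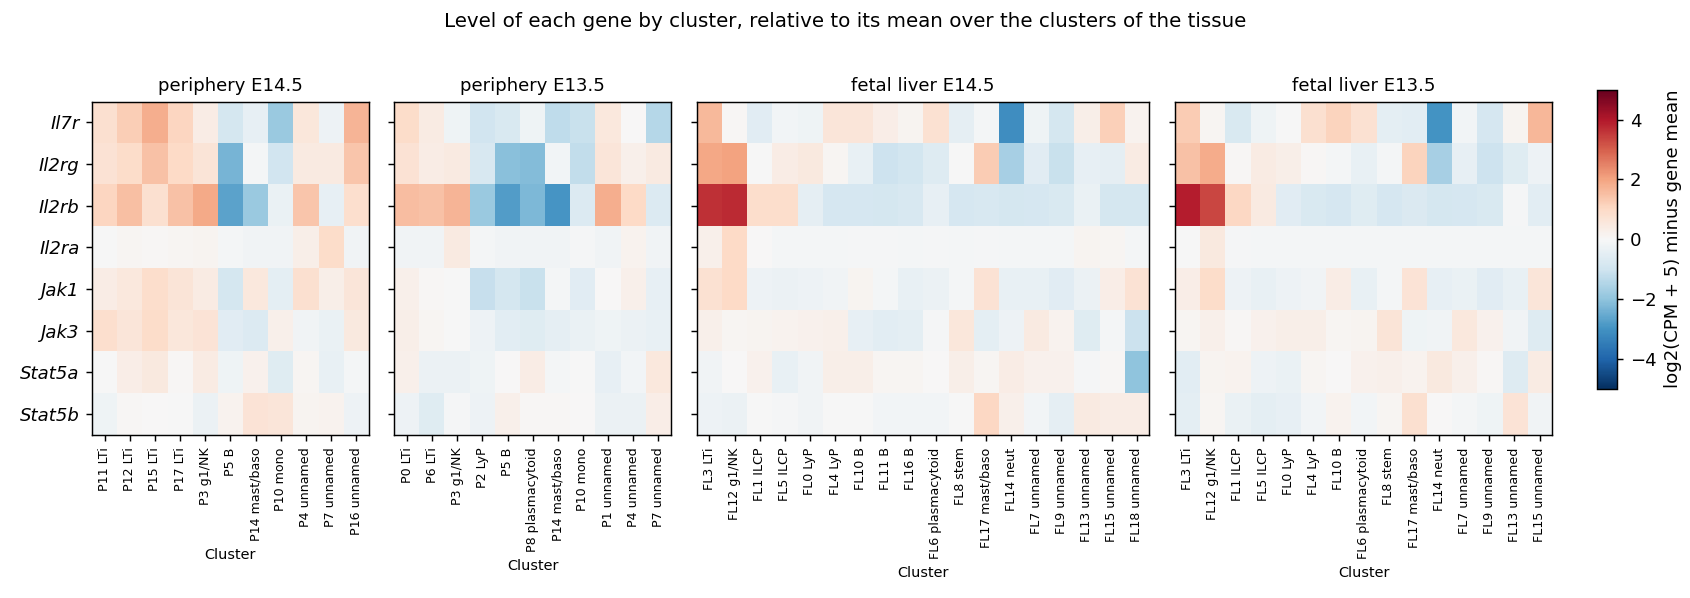
Log2(CPM + 5) of each gene minus its mean over the clusters of the tissue, by cluster and library (clusters of at least 50 cells; g1/NK, group 1 innate lymphoid or NK; ILCP, innate lymphoid progenitor; LyP, lymphoid progenitor; stem, stem and multipotent progenitor; mast/baso, mast cell or basophil; neut, neutrophil lineage; mono, monocyte or macrophage; B, B lineage). In fetal liver Il2rb is high in the LTi-like and group 1 or NK-like columns, in periphery also in unnamed P1 and P4, whereas the rows of Jak1, Stat5a and Stat5b are nearly flat.

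Il2ra came mostly from a few cells. In periphery, the unnamed cluster P13 held 86 of its 132 UMIs at E14.5 in 12 of 16 cells, and 18 of 36 UMIs at E13.5 in 9 of 13 cells. P13 leads with Gzma, Tcrg-C2, Cd3e and Il2ra, and its cells were deep, with a median of 27868 UMIs at E14.5 and 29616 at E13.5. At 202 CPM (162 to 250.03) at E14.5 and 51.2 (30.3 to 80.9) at E13.5 it exceeded all clusters of at least 50 cells, of which the highest had 5.65 and 2.84. Jak3 held 5 UMIs at E14.5 and 0 at E13.5 in this cluster. In fetal liver, FL12 held 19 of 35 Il2ra UMIs at E14.5 and 4 of 7 at E13.5.

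Counts of cells carry the depth of each library, so each cell was thinned to 5000 UMIs and shallower cells were left out: 460 and 331 in periphery at E14.5 and E13.5, and 728 and 382 in fetal liver. In periphery 77.1% of cells had a UMI of Il7r at E14.5 and 58.7% at E13.5; in fetal liver the shares were 57.2% and 47.8%. Without thinning they were 87.7% and 79.7% in periphery and 82.9% and 78.5% in fetal liver. In neutrophil lineage-like FL14, the fetal liver cluster with least Il7r, 6.30% of cells had an Il7r UMI at E14.5 and 5.11% at E13.5. For Il2rg these shares were 6.30% and 7.23% at the same thinned depth. Whether these UMIs are background was not tested, and periphery held no cluster of that name. Il2rg had a UMI in 74.7% of periphery cells at E14.5 and 57.6% at E13.5, against 22.9% and 24.9% of fetal liver cells.

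Both chains of the receptor were seen together most often in periphery. A UMI of Il7r and one of Il2rg stood in 60.4% of periphery cells at E14.5 and 37.1% at E13.5, and in 13.1% of fetal liver cells at both stages. Without thinning these shares were 78.2% and 65.7% in periphery and 42.6% and 49.2% in fetal liver. With Jak1 and Jak3 added, 5.29% and 1.43% of periphery cells and 0.667% and 0.688% of fetal liver cells held all 4 at the thinned depth. In LTi-like P15, 90.8% of cells had Il7r, 89.7% Il2rg and 81.1% both. LTi-like FL3 of fetal liver had 75.8% and 77.5% for Il7r and 71.6% and 57.8% for Il2rg, at E14.5 and E13.5. B lineage-like and plasmacytoid-like clusters of fetal liver had far more cells with Il7r than with Il2rg: at E14.5 Il7r was found in 65.4% of FL10, 60.3% of FL11 and 73.6% of FL6, Il2rg in 20.4%, 11.3% and 15%, and both in 14.2%, 6.45% and 11.48%. B lineage-like P5 of periphery had 43.1% and 44.5% for Il7r and 15.2% and 19.6% for Il2rg, at E14.5 and E13.5. At this depth a missing UMI does not show a missing transcript.

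**Figure D4:**
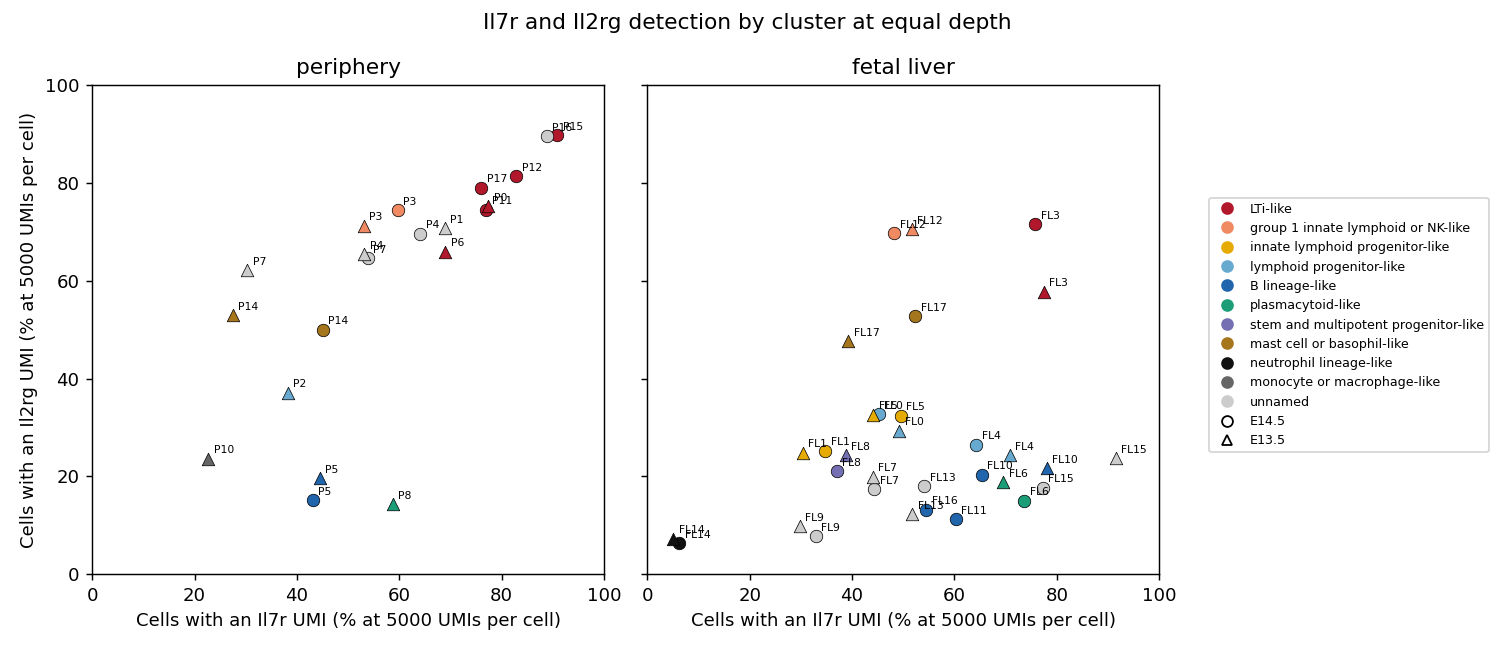
Percent of cells with an Il7r UMI (horizontal) and an Il2rg UMI (vertical) by cluster at 5000 UMIs per cell; circles are E14.5 and triangles E13.5. LTi-like clusters lie high on both axes, B lineage-like and plasmacytoid-like clusters of fetal liver lie high on the first only, B lineage-like P5 of periphery is at 43.1% and 15.2% at E14.5, and FL14 lies near the origin at 6.30% on both axes at E14.5.

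Cells with more Il7r UMIs also held more Il2rg in periphery, with the thinned depth held equal. In periphery at E14.5 Il2rg was at 390 CPM in cells with 2 or more Il7r UMIs, 296 in cells with 1 and 245 in cells with none, and at E13.5 at 276, 206 and 166. In fetal liver these levels were 65.2, 54.4 and 58.1 CPM at E14.5 and 75.1, 65.7 and 55.4 at E13.5, a narrower range and without 1 order at E14.5. Il2rb showed such an order in periphery at E13.5, at 96.8, 71.9 and 54.8 CPM, but was at 73.2, 73.1 and 67.5 at E14.5. In fetal liver it was at 7.11, 4.41 and 6.56 CPM at E14.5 and at 15.7, 7.81 and 5.82 at E13.5. Jak1 was highest in the cells with most Il7r in all 4 libraries, at 188, 156 and 155 CPM in periphery at E14.5. The part of cell type in these orders was not tested.

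**Figure D5:**
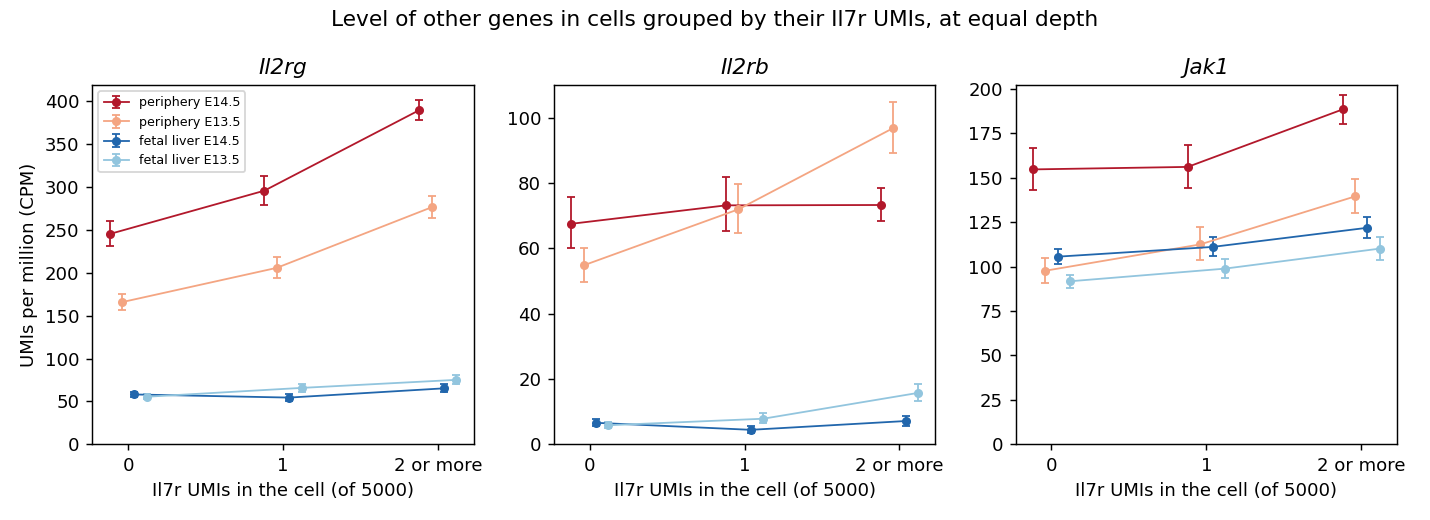
CPM of Il2rg, Il2rb and Jak1 in cells with 0, 1 and 2 or more Il7r UMIs, at 5000 UMIs per cell, with exact Poisson 95% intervals. In periphery Il2rg is highest in the cells with 2 or more Il7r UMIs at both stages, and Il2rb in periphery is nearly level at E14.5.

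Over clusters by library, log2(CPM + 5) of Il7r followed that of Il2rg with Pearson's r of 0.70 over 22 points of periphery and 0.45 over 33 points of fetal liver. It followed Jak1 with 0.75 and 0.42 and Il2rb with 0.68 and 0.26. With Jak3 r was 0.69 and -0.06, with Stat5a 0.33 and -0.22, with Stat5b -0.51 and -0.10, and with Il2ra 0.15 and 0.15. These points share libraries and depth, and the values are descriptions. Ranked by the lower r of both tissues among 4479 genes, the genes most like Il7r were Phip, Tmsb10, Arl2bp, Rara and Gimap1; Phip had 0.87 in periphery and 0.81 in fetal liver. Those most like Il2rg were Snap47 (0.92 and 0.87), Ltb (0.86 and 0.87), Gabarapl2, Pdlim2 and Shisa5. Genes most like Il2rb included S100a4 (0.93 and 0.93), Tcf7 (0.92 and 0.95), Cd82 and Ncor1; Tcf7 and Ltb also served as cluster markers.

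Genes around the receptor were followed in lists chosen with earlier results of these data known, so the counts below are descriptions. Among ligands of the family, Il4 alone reached the level to be measured in whole libraries, and Il7 did not. The list of other receptors also held Il13ra1, Il6ra, Il6st and Il27ra, which do not pair with either chain of the interleukin-7 receptor. In this list 3 of 4 measured genes were lower at E14.5 in fetal liver. There 6.39% of all genes lay past the threshold in either direction, and the list's median was -0.60 and that of all genes 0. Il4ra, the interleukin-4 receptor chain, was at 10.5 CPM at E14.5 and 21.2 at E13.5 (-0.73), Il6ra at -0.64 and Il21r at -0.56. In periphery Il27ra was higher, with 22.7 CPM at E14.5 and 6.25 at E13.5 (1.07), and Crlf2, the partner of Il7r for thymic stromal lymphopoietin, was lower, with 26.8 and 43.5 (-0.84). None of the other JAK and STAT genes lay past the threshold between stages. These were 0 of 4 measured in periphery, against 15.9% of all genes, and 0 of 5 in fetal liver, against 6.39%.

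Of known targets and feedback genes of STAT5, more were higher than lower at E14.5 in both tissues. In periphery 5 of 14 measured genes were higher and 1 lower, with a median of 0.30, where 15.9% of all genes lay past the threshold and 7.63% on the higher side. Socs1, a feedback inhibitor of JAK kinases, was at 33.8 CPM at E14.5 and 7.21 at E13.5 (1.44), the cytokine gene Osm at 55.4 and 20.6 (1.01) and the survival gene Bcl2 at 316 and 135 (0.97). In fetal liver 5 of 12 were higher and 1 lower, with a median of 0.47, where 6.39% of all genes lay past the threshold. Ccnd3, a cyclin of pre-B cell expansion, was at 533 CPM at E14.5 and 160.4 at E13.5 (1.73), Socs2 at 32.9 and 7.12 (1.68) and Osm at 20.5 and 3.50 (1.62). The share of B lineage-like cells moved with these fetal liver values, and its part was not tested.

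The same list was also counted within classes. In LTi-like cells of fetal liver 8 of 12 measured targets were higher at E14.5 and 1 lower, with a median of 0.66, where 10.4% of all genes lay past the threshold. Socs1 was at 309 CPM at E14.5 and 109 at E13.5 (1.44), Socs2 had 1.19 and Socs3 had 1.09. In LTi-like cells of periphery 3 of 12 were higher and none lower, with a median of 0.24, where 11.3% of all genes lay past it. Cd69, an early activation antigen, was at 177 and 51.7 CPM (1.46), Socs1 at 37.7 and 9.46 (1.34) and Bcl2 at 401 and 213 (0.68). In B lineage-like cells of fetal liver 4 of 11 were higher and 1 lower (13.9% of all genes), and the median was -0.07. Socs2 was at 65.0 and 19.6 CPM (1.54), Bcl2l1 at 0.82 and Ccnd3 at 0.68. In the NK-like or group 1 innate lymphoid class of periphery 2 of 13 were higher and 2 lower (22.1% of all genes), with a median of -0.03. Many factors besides STAT5 act on these genes, and STAT5 activity was not measured.

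Known regulators of Il7r were not uniform. In periphery 2 of 9 measured regulators were higher at E14.5 and 1 lower, where 15.9% of all genes lay past the threshold. Ets1 was at 121 CPM at E14.5 and 57.9 at E13.5 (0.78), Runx3 had 0.53, and Spi1, which encodes PU.1, was at 31.7 and 105 (-1.81). In LTi-like cells of periphery Runx3 was at 191 and 85.1 CPM (0.89) and Spi1 at 5.23 and 10.7 (-0.84). In fetal liver 3 of 10 were higher and 2 lower (6.39% of all genes): Foxo1, which activates Il7r in lymphocytes, was at 45.4 CPM at E14.5 and 13.48 at E13.5 (1.48), Ets1 at 73.0 and 25.4 (1.39) and Gfi1b at -0.67. In B lineage-like cells of fetal liver none of 9 regulators was higher at E14.5 and 3 were lower. Of all genes, 13.9% lay past the threshold there and 8.9% on the lower side. The 3 were Spi1 at 113 and 236 CPM, Foxp1 at 259 and 416 (-0.65) and Runx1 at 89.5 and 135 (-0.53). The lower call of Il7r in these cells did not hold under all settings.

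The following counts stand against 15.9% of all genes past the threshold in periphery and 6.39% in fetal liver. Of the BCL2 family, 2 of 10 measured genes were higher and 2 lower at E14.5 in periphery, where the pro-survival Bcl2a1b had -1.22 and Bcl2l11, which promotes cell death, -1.02. In fetal liver 1 of 9 was higher and 1 lower: the pro-survival Bcl2l1 was at 39.8 CPM at E14.5 and 21.7 at E13.5 (0.78), and the pro-apoptotic Pmaip1 had -0.62. Negative regulators of the pathway held 0 of 6 past the threshold in periphery and 1 of 7 in fetal liver, the phosphatase gene Ptpn6, at 140 CPM at E14.5 and 219 at E13.5 (-0.60). Adaptors and other branches held 0 of 9 in periphery and 1 of 9 in fetal liver, Ptk2b at -0.71.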

How the data were processed

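The 4 10x Chromium 3′ libraries of sorted mouse cells were used. The deposited matrices hold raw UMI counts per gene and barcode, checked as whole numbers; per the submitters' processing notes the authors made them with Cell Ranger 3 on mm10; releases 3.0.0 (fetal liver) and 3.0.1 (periphery) stand in the file headers. The sources used here do not give read filters or the gene models behind the feature lists (31053 genes in fetal liver, 28427 in periphery). At E14.5 and E13.5 the files hold 5008 and 4531 barcodes of periphery, with 44599592 and 53229734 UMIs, and 12090 and 10783 of fetal liver, with 208229937 and 212034840.

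Barcodes under 500 genes or over 10% mitochondrial UMIs were dropped. Scrublet (scanpy 1.11.5) scored each library for doublets at an expected 0.8% per 1000 barcodes, and marked barcodes were left out; in periphery at E14.5 and E13.5 these were the top scores up to the expected rate (3.352% and 3.252%), in fetal liver those past the automatic threshold (7.982% and 3.552%). Each tissue was clustered over both stages on 2000 variable genes without the 8 genes and the pathway lists, with 30 principal components, 15 neighbours and Leiden resolution 1. A cluster took the name of a marker set with 3 or more and more than 50% of its genes at 20 CPM and above background, unless its 10 leading genes spoke for another class or its cells were shallow; names rebuilt this way may differ from the study's.

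CPM were computed from UMIs summed over cells of a library, class (at least 50 cells in both libraries) or cluster. Folds are of CPM + 5, E14.5 over E13.5 and periphery over fetal liver. There were no replicates, so no test was made. By a rule set with the lists, the 8 genes are described in each comparison, in full or by their range, and list genes are named from among the 3 largest folds; similarity used genes with a mean of at least 20 CPM, of which the 5 most alike are named, except 1 gene that is not reported here. Only the fold and thinning steps were tested on simulated counts, and the recovery of known folds was checked with a pseudocount far below 5 CPM. Alternatives were another pseudocount, normalization, low-value filter, centring, cell filter, clustering resolution, seed, thinning depth, per-cell mean CPM, other UMI totals, the 8 genes and lists allowed in clustering, and doublets kept. The genes, lists and markers were chosen with earlier results of these data known. Work used Python 3.11.15, numpy 2.4.6, scipy 1.17.1, pandas 2.3.3, igraph 0.11.9 and matplotlib 3.10.9.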

Additional observations from a re-analysis of the deposited data

Results flagged for a closer look

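A signal outside the compared clusters was seen in P13, an unnamed periphery cluster of 16 cells at E14.5 and 13 at E13.5, too small to enter the comparisons. There Il2ra stood at 202 CPM (162 to 250.03) at E14.5 and 51.2 (30.3 to 80.9) at E13.5, and Stat5a at 49.4 (30.6 to 75.6) and 34.1 (17.6 to 59.6). For both genes and stages this was above the highest cluster of at least 50 cells, which had 5.65 and 2.84 CPM of Il2ra and 14.2 and 14.8 of Stat5a. The values of Stat5a rest on 21 and 12 UMIs. Il7r, in contrast, was at 70.6 CPM at E14.5 and 48.3 at E13.5 in these cells. The cells held 2.759 times the median depth of the tissue, and the part of doublets was not tested.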

How the results depend on the processing

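Counts of genes past 0.5 log2 units kept within 1.5 times their value in 58 recomputations and moved past that in 10; of the log2 folds past the threshold, 2 recomputations turned the sign. Folds within the threshold changed sign more often, as Stat5a in LTi-like periphery cells did in 7 of 12 alternatives. The 1 higher gene of periphery between stages became 2 with a pseudocount of 1 CPM, 4 with no filter on low values and 4 with no centring on the all-gene median. The 0 of whole fetal liver became 1, Il7r, under a stricter cell filter (1000 genes as the minimum, 5% mitochondrial UMIs as the limit); the 4 of the tissue comparison at E14.5 became 7, 5 higher and 2 lower, with no low-value filter. The 1 lower gene of LTi-like periphery cells became 0 with no low-value filter and 2, both higher, with no centring. The 3 lower genes of B lineage-like fetal liver cells became 0 with doublets kept, 0 at Leiden resolution 2 and 1, higher, under that filter, where Il2rg turned to 0.81 and Jak3 to 0.068. Each of these settings clustered and named the cells anew, and the cause was not tested. Il7r ranged over 0.61 to 0.88 in periphery and 0.31 to 0.61 in fetal liver between stages, and -0.68 to -0.27 in B lineage-like cells. Between tissues Il2rg ranged over 2.38 to 2.65 at E14.5 and 1.63 to 2.21 at E13.5. No paired analysis was possible because each group is 1 library. Low counts limit Il2ra in all libraries and Il2rb in fetal liver.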
